A study of Mus musculus with 10 samples.

Results

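Galectins are small lectins that bind beta-galactoside sugars on glycoproteins and glycolipids. They are made without a signal peptide, leave the cell by an unconventional route, and cross-link glycans on the cell surface and in the matrix; several also act inside cells, where they mark damaged vesicles. The family is sorted by shape into prototype galectins with a single carbohydrate-binding domain per chain, the chimera-type galectin-3, whose domain carries a flexible tail, and tandem-repeat galectins with a pair of domains on a chain. In human thyroid pathology, galectin-3 is used as a stain for papillary carcinoma. The genes described here are the prototype members Lgals1 and Lgals2, the chimera member Lgals3, the tandem-repeat members Lgals4, Lgals8, Lgals9 and Lgals12, and Lgals3bp, a secreted glycoprotein that galectins bind and that is not itself a galectin. They were chosen by gene symbol, and all 8 had a probe set, which makes them 8 of the 19938 genes measured. Each had 1 probe set with its symbol alone.

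The data come from 10 mouse thyroid tumours on a mixed C57BL/6 and 129SvJae background, with 1 Affymetrix whole-transcript array per tumour. The 5 anaplastic thyroid carcinomas (ATC) carried TPOCreER and BrafV600E and were p53 -/-, and the 5 papillary thyroid carcinomas (PTC) carried TPOCreER and BrafV600E. All tumours therefore share the Braf oncogene, which a tamoxifen-inducible Cre under the thyroid peroxidase promoter activates in thyroid follicular cells, and the p53 genotype differs wherever the tumour type does. Tumours are labelled as biological replicates, with nothing on whether each came from its own animal, so p-values measure the spread between these tumours. All values are log2 probe set intensities as deposited, every difference is that of ATC minus PTC, errors of means are SDs over n = 5 tumours of a type, and per-tumour values run from replicate 1 to 5. Adjusted p-values come from a limma fit over all 19938 genes with the Benjamini-Hochberg method, at a threshold of 0.05. Brightness differs between probe sets for reasons other than RNA amount, so levels are compared between tumours and not between genes.

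Lgals1 was the galectin that rose in ATC, by a factor of 2.55. It encodes galectin-1, a homodimer that binds glycans on T cells, endothelium and matrix and is abundant in mesenchymal cells. Of the other members, Lgals4 fell slightly and 6 did not pass the test. The members called were thus 2 of 8, beside 21.2% of all genes tested, with 1 rise (11.5% of all genes rose) and 1 fall (9.72% of all genes fell). The median difference over the members was −0.13, beside −0.018 over all genes. The share of members called is close to that of all genes and is no result about the family as a set.

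Lgals1 was at 12.99, 12.88, 13.001, 12.64 and 13.01 in the ATC tumours, against 11.93, 11.53, 11.44, 11.66 and 11.21 in the PTC tumours. Every ATC tumour exceeded every PTC tumour, with ATC replicate 4 lowest among the ATC tumours and PTC replicate 1 highest among the PTC tumours. Groups did not overlap for 2 of the 8 members, beside 16.9% of all genes (9.13% with ATC above PTC and 7.74% with ATC below). The mean was 12.91 ± 0.16 in ATC and 11.56 ± 0.27 in PTC, a difference of 1.35 (SE 0.13, 95% interval 1.07 to 1.63, limma adjusted p = 0.00011). In whole tumours, a change in the number of cells of a type and a change in RNA per cell cannot be told apart.

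**Figure D1:**
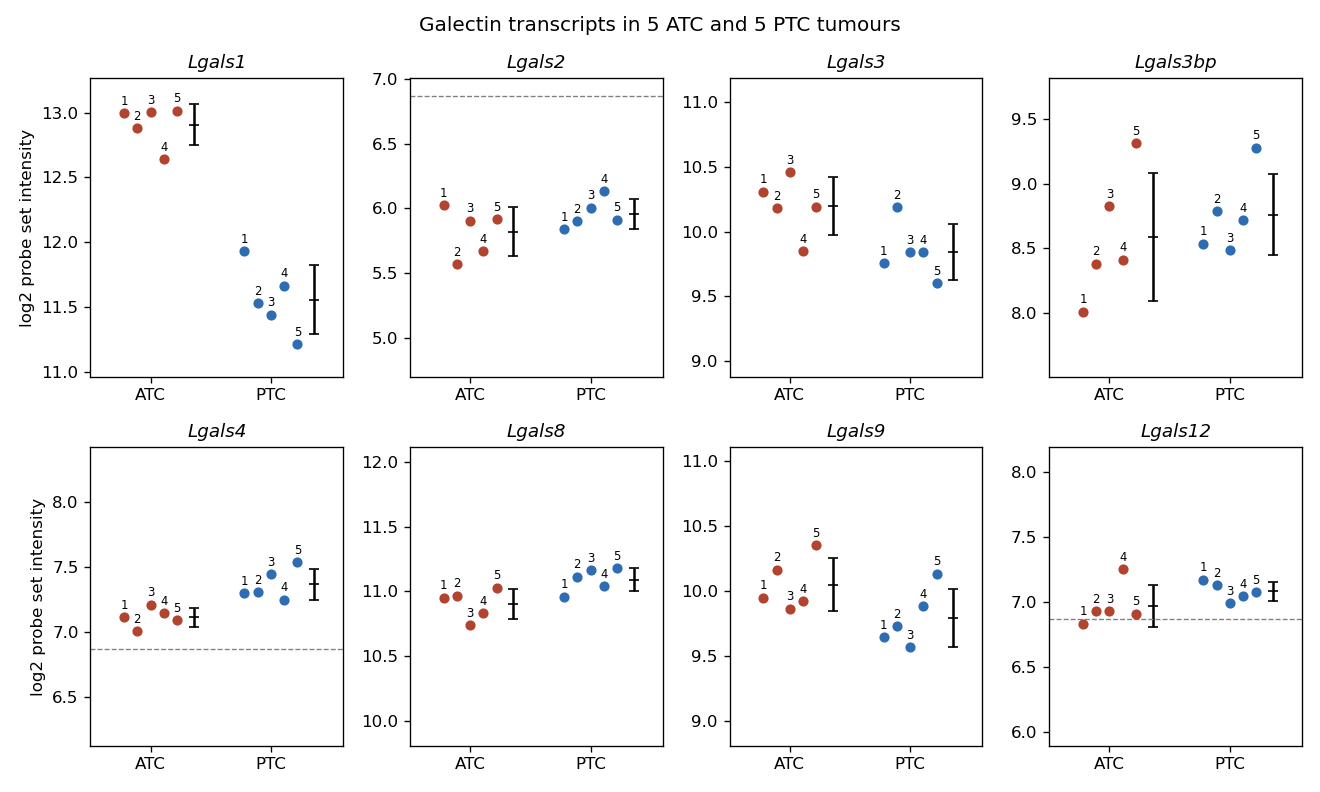
Log2 probe set intensity of the 8 members in 5 ATC tumours (red) and 5 PTC tumours (blue); each point is a tumour numbered by its replicate, black bars show the mean ± SD, every panel spans the same number of log2 units, and the dashed line is the 95th percentile of olfactory and vomeronasal receptor genes (6.87). The ATC and PTC points are apart for Lgals1 and, by a small margin, for Lgals4; in the other panels they overlap.

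Lgals2, the other prototype member, is known mainly from the gut. Its values ran from 5.57 to 6.03 in ATC and from 5.84 to 6.13 in PTC. They lay below 6.87, the 95th percentile of the mean intensity of 1194 olfactory and vomeronasal receptor genes, in all 10 tumours. That percentile was taken as a guide to the signal of genes not used in this tissue, since the deposited table has no detection call. The difference was −0.14 (95% interval −0.36 to 0.07, limma adjusted p = 0.364), and at this brightness a change could be hidden.

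Lgals3 encodes galectin-3, which is made by epithelial cells and macrophages and binds branched N-glycans. It was at 10.31, 10.18, 10.46, 9.85 and 10.19 in the ATC tumours, against 9.76, 10.19, 9.84, 9.84 and 9.60 in the PTC tumours. Of the ATC tumours, 3 lay above every PTC tumour, replicate 5 only just, while ATC replicates 2 and 4 lay within the PTC range and PTC replicate 2 within the ATC range. The mean was 10.199 ± 0.22 in ATC and 9.85 ± 0.22 in PTC, and the difference of 0.35 (95% interval 0.07 to 0.63) did not pass (limma adjusted p = 0.0748). It passed when 1 of 2 tumours was left out, at 0.44 without PTC replicate 2 (limma adjusted p = 0.0274) and 0.44 without ATC replicate 4 (limma adjusted p = 0.023).

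Lgals3bp was spread widely within both tumour types. Its values were 8.01, 8.38, 8.82, 8.41 and 9.31 in ATC, against 8.54, 8.79, 8.49, 8.72 and 9.28 in PTC. Replicate 5 was the highest tumour of each type, and the groups overlapped over most of their range. The mean was 8.59 ± 0.50 in ATC and 8.76 ± 0.31 in PTC, with a difference of −0.17 (95% interval −0.67 to 0.32, limma adjusted p = 0.656).

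Among the tandem-repeat members, Lgals4 fell. It encodes galectin-4, a galectin of the digestive tract epithelium. Its values were 7.11, 7.01, 7.21, 7.14 and 7.09 in ATC, against 7.30, 7.30, 7.44, 7.25 and 7.54 in PTC. The groups did not overlap, with ATC lower, by a gap that is small beside the range within each group, and all 10 were above the receptor percentile of 6.87 by less than 1 log2 unit. The mean was 7.11 ± 0.07 in ATC and 7.37 ± 0.12 in PTC, a difference of −0.25 (SE 0.07, 95% interval −0.42 to −0.09, limma adjusted p = 0.0316). Leaving out any of PTC replicates 3 and 5 and ATC replicates 1, 2 and 5 ended the call (−0.25 to −0.21, limma adjusted p 0.051 to 0.0797), as did quantile normalization once more (−0.21, limma adjusted p = 0.0674) and a fit with each array centred on its median (−0.21, limma adjusted p = 0.0692). Lgals6, a near-identical paralog of Lgals4 that only some laboratory mouse strains carry, is not analysed here, and the part of its signal in the Lgals4 probe set was not tested.

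Lgals8 encodes galectin-8, which binds integrins outside the cell and recruits the autophagy machinery to damaged vesicles inside it. It was at 10.95, 10.97, 10.74, 10.83 and 11.03 in ATC, against 10.96, 11.11, 11.16, 11.04 and 11.18 in PTC. Of the ATC tumours, 3 lay below every PTC tumour and the others within the PTC range. The difference of −0.19 (95% interval −0.35 to −0.02) did not pass (limma adjusted p = 0.108), but it passed with quantile normalization once more (−0.27, limma adjusted p = 0.034).

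Lgals9 encodes galectin-9, a ligand of the T cell receptor Tim-3 that interferon induces in many cells. Its values were 9.95, 10.17, 9.87, 9.92 and 10.35 in ATC, against 9.65, 9.73, 9.57, 9.88 and 10.14 in PTC. Replicate 5 was the highest of each type, as for Lgals3bp, and PTC replicate 5 reached well into the ATC range. The mean was 10.05 ± 0.20 in ATC and 9.79 ± 0.23 in PTC, with a difference of 0.26 (95% interval −0.02 to 0.53, limma adjusted p = 0.177).

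Lgals12, known as the galectin of adipocytes, lay close to the receptor percentile. It ran from 6.83 to 7.25 in ATC and from 6.99 to 7.17 in PTC, with 9 of the 10 tumours above 6.87. The difference was −0.11 (95% interval −0.30 to 0.07, limma adjusted p = 0.406), and ATC replicate 4 was the highest of all 10. The adipocyte markers showed no call in 7 measured members, with a list mean of 6.84 to 7.05 in ATC and 6.91 to 7.25 in PTC, and the adipocyte hormone gene Adipoq, at 5.79 ± 0.15 in ATC and 6.21 ± 0.48 in PTC, was below the receptor percentile on average in both types (difference −0.42, limma adjusted p = 0.160).

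**Figure D2:**
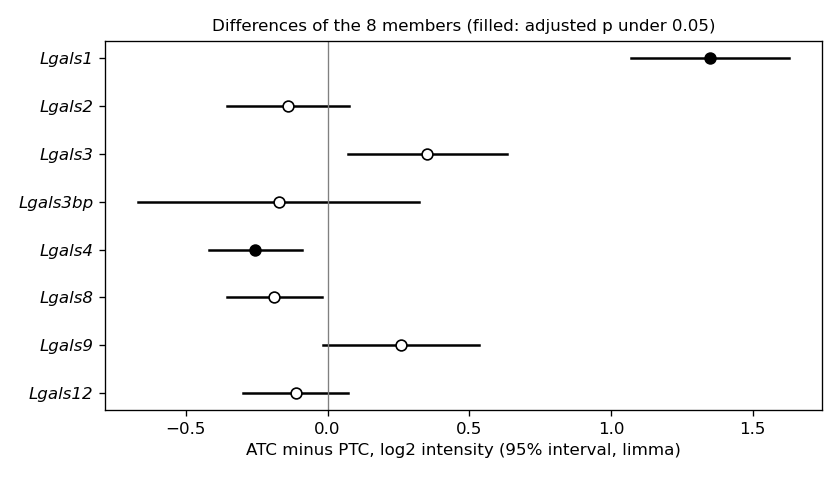
Difference ATC minus PTC in log2 intensity for the 8 members, with 95% intervals from the limma fit; filled points have an adjusted p under 0.05. The interval of Lgals1 (1.07 to 1.63) lies to the right of those of the other members, the next highest being that of Lgals3 (0.07 to 0.63).

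The rise of Lgals1 was set directly against the change of each other member by taking, in every tumour, the log2 value of Lgals1 minus that of the other gene. The mean of Lgals1 minus Lgals3 was 2.71 ± 0.11 in ATC and 1.71 ± 0.31 in PTC, so that Lgals1 changed by 1.00 log2 unit more than Lgals3. Against the other 6 members the excess ran from 1.09 (Lgals9) to 1.60 (Lgals4). In each of the 7 comparisons the groups did not overlap, with ATC higher, and each gave the smallest two-sided p that an exact permutation test of 5 against 5 tumours allows, p = 0.00794 (0.00794 after Benjamini-Hochberg adjustment over the 7). The 7 comparisons share the Lgals1 values and are not independent. Lgals1 was set against the others as the member that rose, and no other member differed by more than 0.35. The 7 p-values therefore restate the rise of Lgals1 and are no separate evidence for it.

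The tumours did not keep the same rank from member to member. ATC replicate 4 had the lowest Lgals1 and the lowest Lgals3 of the ATC tumours and the highest Lgals12. PTC replicate 5 had the lowest Lgals1 and the lowest Lgals3 of the PTC tumours, and the highest Lgals3bp, Lgals4, Lgals8 and Lgals9. ATC replicate 5 was likewise highest of its type for Lgals3bp, Lgals8 and Lgals9, and also for Lgals1. The SD was larger in ATC than in PTC for 5 of the 8 members, the exceptions being Lgals1, Lgals4 and Lgals9.

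Of the members whose values spanned at least 1 log2 unit over the 10 tumours, Lgals1 and Lgals3bp, the genes most alike in profile were found by the root mean square difference after each gene was centred on its own mean. Nearest to Lgals1 were Cks1b, which encodes a subunit of cyclin-dependent kinases (0.160 log2 units), the beta-tubulin gene Tubb6 (0.175) and Rbpj, the DNA-binding factor of Notch signalling (0.182). Cks1b was at 11.19 ± 0.23 in ATC and 9.91 ± 0.22 in PTC. Nearest to Lgals3bp were Farp1, a guanine nucleotide exchange factor gene (0.171), Dnmt3a, a DNA methyltransferase gene (0.174), and the ribonuclease inhibitor gene Rnh1 (0.180), which did not pass between the tumour types (limma adjusted p 0.227 to 0.526), although Dnmt3a passed without ATC replicate 5 (−0.54, limma adjusted p = 0.0365). These distances over 10 tumours are descriptions.

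On the chromosomes, Lgals1 and Lgals2 lie on chromosome 15 with a few genes between them, Lgals9 and Lgals3bp on chromosome 11, Lgals4 on chromosome 7, Lgals8 on 13, Lgals3 on 14 and Lgals12 on 19. The nearest measured protein-coding neighbours of Lgals1, looked up after its value was seen, differed by less than it did. The 3 on one side, Gga1, Sh3bp1 and Pdxp, differed by 0.09, 0.13 and −0.02 (limma adjusted p 0.413 to 0.926). On the other side Nol12, a nucleolar protein gene, rose by 0.26 (limma adjusted p = 0.0194), and Triobp and Gcat differed by 0.24 and −0.03 (limma adjusted p 0.0834 and 0.833). Around Lgals4, the 6 neighbours Rinl, Hnrnpl, Ech1, Lgals7, Capn12 and Actn4 differed by −0.15 to 0.10 and did not pass (limma adjusted p 0.317 to 0.805).

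Promoter sequences from RefSeq (GRCm38.p6) were at hand for 6 of the 8 members, and those of Lgals1 and Lgals12 are not shown. The 250 bases upstream of the start are given for Lgals4, the called member among those 6, on the plus strand at chr7:28833544-28833793, and for Lgals3, whose call depended on single tumours, on the plus strand at chr14:47373610-47373859. Capitals mark matches to any of 3 motifs searched on both strands, the AP-1 site TGANTCA, the GC box GGGCGG and the TATA box TATAAA.
Lgals4: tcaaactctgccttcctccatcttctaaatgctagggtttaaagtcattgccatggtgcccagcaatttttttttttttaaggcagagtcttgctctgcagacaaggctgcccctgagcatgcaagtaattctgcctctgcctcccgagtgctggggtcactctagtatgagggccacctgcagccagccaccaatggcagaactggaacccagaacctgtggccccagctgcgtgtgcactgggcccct
Lgals3: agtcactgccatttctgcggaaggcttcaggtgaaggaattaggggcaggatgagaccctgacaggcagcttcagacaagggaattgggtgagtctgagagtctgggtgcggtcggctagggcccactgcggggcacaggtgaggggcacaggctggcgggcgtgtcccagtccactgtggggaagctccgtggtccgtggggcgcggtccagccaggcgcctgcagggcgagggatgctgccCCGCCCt
Lgals3 held 1 GC box on the opposite strand, 7 to 2 bases before the start, and no match to the other motifs, and Lgals4 held none of the 3. The same windows of Lgals2, Lgals8, Lgals9 and Lgals3bp also held none. Among 32851 mouse promoter windows of that length, 6.75% held the AP-1 site, 32.7% the GC box and 12.4% the TATA box. A match is a description of letters and not of binding.

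The other galectin-fold genes with a probe set were Lgals7, Lgalsl and Grifin, and none of the 3 passed (limma adjusted p 0.217 to 0.792). Lgalsl, a galectin-related gene without sugar binding, was at 7.39, 8.08, 7.57, 8.49 and 9.05 in ATC, against 8.74, 8.33, 8.64, 8.78 and 8.65 in PTC. The ATC tumours spanned the PTC range on both sides, and the difference of −0.51 passed when ATC replicate 5, the highest, was left out (−0.74, limma adjusted p = 0.0287).

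Galectins act through glycoproteins and other proteins they bind, and 19 such partners were measured, from surface receptors to proteins that act at vesicles. Of these 2 rose, 4 fell and 13 did not pass, beside 11.5% of all genes that rose and 9.72% that fell. The median difference was −0.12 (−0.018 over all genes). Over the alternatives the list held 5 to 8 calls, against 6. Fn1, the matrix protein fibronectin, rose by 0.55 (SE 0.09), at 13.02 ± 0.12 in ATC and 12.47 ± 0.16 in PTC (limma adjusted p = 0.00162). Lamp1, a lysosomal membrane glycoprotein gene, rose by 0.26 (limma adjusted p = 0.0139), but the call ended with quantile normalization once more (0.18, limma adjusted p = 0.0835). Both are carriers of galectin-binding glycans.

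The partner genes that fell include a T cell adhesion molecule and the hyaluronan receptor. Cd2, found on T and NK cells, was at 7.29, 8.16, 7.40, 7.26 and 7.54 in ATC, against 9.13, 9.53, 8.98, 9.31 and 8.52 in PTC, with no overlap (difference −1.57, SE 0.21, limma adjusted p = 0.000503). Of 7 measured T cell markers 2 fell, beside 9.72% of all genes that fell and 21.2% called in either direction. Among them was the receptor subunit gene Cd3e (−0.43, limma adjusted p = 0.00661). The list mean was 6.48 to 6.98 in ATC and 6.87 to 7.15 in PTC, and 4 of the 7 lay at or below the receptor percentile. The part of these markers in the Cd2 result was not tested. Cd44, the hyaluronan receptor, was at 11.73, 12.06, 11.86, 11.60 and 11.36 in ATC, against 12.40, 12.38, 12.302, 12.52 and 12.299 in PTC. It lay lower in every ATC tumour than in every PTC tumour, and fell by 0.66 (SE 0.12, limma adjusted p = 0.00252). Mcam, an endothelial adhesion molecule gene that binds galectin-1, fell by 0.39 (limma adjusted p = 0.0192), and Pdcd6ip, which encodes the vesicle-sorting protein Alix, fell by 0.36 (limma adjusted p = 0.0183). The receptors of galectin-9 and galectin-3 on T cells, Havcr2 and Lag3, differed by −0.06 and −0.04 (limma adjusted p = 0.894 and 0.706), and Lag3 averaged 6.51 in ATC and 6.55 in PTC, below the receptor percentile, where a change could be hidden. Ptprc, the CD45 phosphatase that galectin-1 binds, differed by −0.12 (limma adjusted p = 0.622), and the integrin gene Itgb1 by −0.12 (limma adjusted p = 0.329).

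Enzymes that build or cap galectin ligands were measured as a list of 14, of which 6 rose, 0 fell and 8 did not pass, beside 11.5% of all genes that rose and 9.72% that fell, with a median difference of 0.28 (−0.018 over all genes). Fut8, which adds core fucose to N-glycans, was at 10.71, 10.53, 11.17, 11.10 and 10.35 in ATC, against 9.71, 10.04, 9.95, 9.798 and 9.901 in PTC, and rose by 0.89 (SE 0.15, limma adjusted p = 0.00192). St6gal1, the sialyltransferase whose alpha-2,6 cap blocks galectin-1 binding, was at 9.64, 8.77, 9.39, 8.74 and 9.42 in ATC, against 8.61, 8.51, 8.205, 8.12 and 8.57 in PTC, and rose by 0.79 (SE 0.18, limma adjusted p = 0.0106). For both genes the ATC tumours were higher without overlap. The mannosidase gene Man2a1, which trims N-glycans before branching, rose by 0.76 (SE 0.12, limma adjusted p = 0.00128). The galactosyltransferase gene B4galt1, which adds the galactose that galectins bind, rose by 0.43, and the branching enzyme genes Mgat4a and Mgat2 by 0.54 and 0.26, with limma adjusted p of 0.0236, 0.0389 and 0.0434. The call of B4galt1 ended without PTC replicate 4 or 5 (limma adjusted p 0.0606 and 0.055), that of Mgat4a when any of PTC replicates 1, 4 and 5 and ATC replicates 1, 2 and 4 was left out (limma adjusted p 0.0563 to 0.0816), and that of Mgat2 without any tumour other than PTC replicate 2 or ATC replicate 4 (limma adjusted p 0.0511 to 0.0986). Quantile normalization once more also ended these 3 (limma adjusted p 0.0544 to 0.0822), and without PTC replicate 5 the list held 3 calls. Mgat5, whose product makes the branch that galectin-3 favours, ran the other way without passing (difference −0.31, limma adjusted p = 0.0607), and it passed without ATC replicate 5 (−0.38, limma adjusted p = 0.0116) and in 4 of the 9 other alternatives, among them a further quantile normalization (−0.34, limma adjusted p = 0.024) and the filter at the receptor percentile (limma adjusted p = 0.0497).

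**Figure D3:**
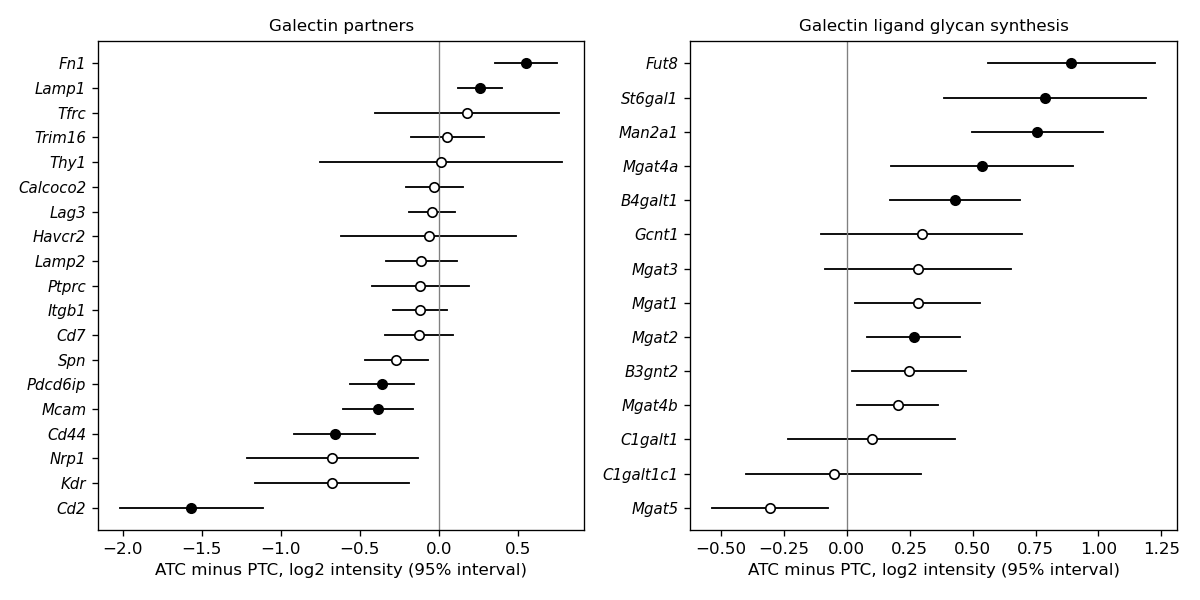
Difference ATC minus PTC in log2 intensity, with 95% limma intervals, for 19 galectin partners (left) and 14 enzymes of ligand glycan synthesis (right), sorted by the difference; filled points have an adjusted p under 0.05. Cd2 (−1.57), Kdr (−0.67), Nrp1 (−0.67) and Cd44 (−0.66) stand at the lower end of the left panel. Of these Kdr and Nrp1 did not pass (limma adjusted p = 0.0514 and 0.0771). Fut8 (0.89), St6gal1 (0.79) and Man2a1 (0.76) stand at the upper end of the right panel.

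Several cell types make galectin-1 and galectin-3, and their markers differed between the tumour types beside Lgals1. Of 12 macrophage markers 11 rose and 1 did not pass, beside 11.5% of all genes that rose. Their list mean was 10.52 to 11.2 in ATC and 9.22 to 9.68 in PTC. Csf1r, the macrophage growth factor receptor, rose by 1.35 (SE 0.17, limma adjusted p = 0.000374), Cd68 by 0.67 (limma adjusted p = 0.000244) and the complement gene C1qa by 1.58 (limma adjusted p = 0.000706). In ATC replicates 1 to 5 the macrophage mean was 11.12, 10.80, 10.52, 10.97 and 11.20. Lgals1 was at 12.99, 12.88, 13.001, 12.64 and 13.01 in the same tumours. Replicate 5 was highest in both, and replicate 3, with the lowest macrophage mean, had an Lgals1 close to the highest. The part of the macrophage signal in the Lgals1 result was not tested.

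Of 8 fibroblast markers 0 rose, 3 fell and 5 did not pass, beside 11.5% of all genes that rose and 9.72% that fell. Their list mean was 8.88 to 9.73 in ATC and 9.53 to 9.68 in PTC. ATC replicate 5 lay above every PTC tumour, and the other ATC tumours lay below every PTC tumour. The 3 that fell were Lum (−2.07), Dcn (−1.35) and Fap (−0.91), with limma adjusted p of 0.00177, 0.000648 and 0.000996. The collagen gene Col1a1 differed by −0.20 (limma adjusted p = 0.461). Pdgfra, a growth factor receptor gene of mesenchymal cells singled out after its values were seen, was at 10.96, 8.62, 11.14, 9.35 and 11.05 in ATC, against 8.96, 9.05, 9.05, 9.09 and 9.11 in PTC, and its difference of 1.17 did not pass (limma adjusted p = 0.0848). It was highest in ATC replicates 1, 3 and 5, which also had the highest Lgals1 of the ATC tumours. The same tumours had the lowest epithelial marker means and the lowest thyroglobulin (Tg) of the ATC tumours, so this split is not particular to Pdgfra. The part of Pdgfra in the Lgals1 result was not tested. Of 7 measured epithelial markers 5 fell and 2 did not pass, beside 9.72% of all genes that fell. Their list mean was 8.24 to 10.05 in ATC and 10.76 to 10.93 in PTC. Epcam fell by 2.73 and Cdh1 fell by 2.43 (limma adjusted p = 0.00838 and 0.00136). In ATC replicates 1 to 5 the epithelial mean was 8.24, 10.05, 8.47, 9.39 and 8.99. Replicates 2 and 4, with the highest epithelial means of the ATC tumours, had the lowest Lgals1, at 12.88 and 12.64. The part of the epithelial signal in the Lgals1 result was not tested. The thyroid follicular list, which checks the labelled tissue, had a mean of 6.94 to 8.42 in ATC and 8.13 to 9.17 in PTC. Of its 7 measured members 1 fell, Tshr (−1.67, limma adjusted p = 0.0295), and 6 did not pass. Over the alternatives the list held 0 to 3 calls. Thyroglobulin, Tg, was at 9.54 ± 2.41 in ATC and 12.31 ± 0.65 in PTC (difference −2.76, limma adjusted p = 0.0583). Tg passed when ATC replicate 2 or 4 was left out and with the filter at the receptor percentile (limma adjusted p = 0.0466). Of the remaining marker lists, neutrophil, skeletal muscle and parathyroid lists held no call in 8, 8 and 3 measured members, although 3 neutrophil markers passed without PTC replicate 5. Of 8 endothelial markers 2 fell, but 1 passed when any tumour other than ATC replicate 2, 4 or 5 was left out. Of 8 intestinal markers 2 fell, Krt20 (−3.12, limma adjusted p = 0.00366) and Fabp1 (−2.10, limma adjusted p = 0.0196). Krt20 averaged 8.50 in ATC and 11.62 in PTC, above the receptor percentile. Fabp1 was among the 5 of the 8 that lay at or below it. Beside these counts, 9.72% of all genes fell and 21.2% were called in either direction.

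**Figure D4:**
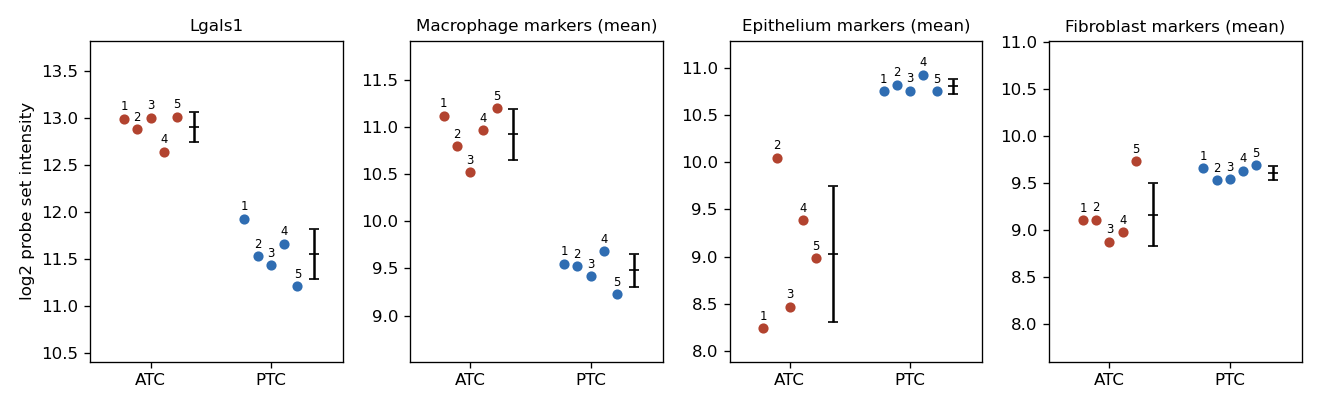
Log2 intensity of Lgals1 and mean log2 intensity of the macrophage, epithelium and fibroblast marker lists in each tumour, ATC in red and PTC in blue, numbered by replicate, with the mean ± SD in black; every panel spans the same number of log2 units. Lgals1 and the macrophage mean are higher in all ATC tumours than in all PTC tumours, and the epithelial mean is lower in all of them. The fibroblast mean is lower than in all PTC tumours in ATC replicates 1 to 4 and higher in ATC replicate 5.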

How the data were processed

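Per the labels' protocols, total RNA was labelled with the Affymetrix whole-transcript sense target kit. Affymetrix Power Tools and limma appear in the submitters' processing notes, with neither version nor role; for normalization, background correction and build, the method was not given in the sources used here. In the deposited table there are 35556 probe sets on 10 arrays; its values (2.79 to 14.15, array medians 7.25 to 7.34) were read as log2 intensities from their range and used as deposited. The number of arrays limits the precision.

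Of the probe sets, 21789 had 1 gene symbol in the platform annotation, 1621 had several and 12146 had none here. Each gene was represented by its brightest probe set (19938 genes). RefSeq tables of GRCm38.p6 gave chromosomes, gene order and promoters.

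The contrast was fitted in R 4.3.3 with limma 3.58.1 (lmFit, eBayes), with no covariate or filter, and adjusted over all genes by the Benjamini-Hochberg method. The procedure was also run on simulated data in which genes varied independently and 200 were changed. In these tumours 4234 genes passed, so that run does not test the setting of these data. Exact permutation tests used scipy 1.17.1 (Python 3.11.15). The members and lists were chosen with earlier results of these data known. Genes named were the members, called members of the partner and glycan lists, other galectin-fold genes, defining markers and the 3 genes most alike to each wide-ranging member; predicted genes were passed over. Chromosomal neighbours and an interferon list were added after seeing values. The alternatives tried were each tumour left out, array weights, 2 filters on dim genes, a further quantile normalization, median centring, averaging of probe sets per gene, testing every probe set, a trended and robust variance, and a replicate block.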

Additional observations from a re-analysis of the deposited data

Results flagged for a closer look

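For the genes named, each group of 5 tumours was searched for a tumour far from the others by Dixon's test, which chance passes in about 1 of 20 groups; 5 of 86 groups passed. Among the galectins, Lgals12 in ATC replicate 4 was at 7.25, against 6.83 to 6.93 in the other ATC tumours. Dnmt3a, one of the genes most like Lgals3bp in profile, was highest in replicate 5 of both types, at 9.80 in ATC (others 8.83 to 9.11) and 10.1 in PTC (others 9.26 to 9.43). Col1a1 was at 9.26 in ATC replicate 5, against 8.38 to 8.61 in the other ATC tumours. Csf1r was at 10.29 in ATC replicate 3, against 11.03 to 11.32 in the other ATC tumours.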

How the results depend on the processing

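The rise of Lgals1 passed in all 9 alternatives (differences 1.30 to 1.39) and with each tumour left out (1.26 to 1.44), with limma adjusted p up to 0.00158. Lgals2, Lgals3bp, Lgals9 and Lgals12 passed in none of these fits. Lgals3 differed by 0.29 to 0.44 and Lgals4 by −0.28 to −0.21 with each tumour left out, and between 1 and 3 members were called, the 3 being Lgals1, Lgals3 and Lgals4 without PTC replicate 2 or ATC replicate 4. With the replicate block, 1 member was called, since Lgals4 (−0.25) no longer passed (limma adjusted p = 0.0618), and 3762 of all genes passed, against 4234 without it. The block also ended the calls of B4galt1 (0.43, limma adjusted p = 0.0774) and Mgat2 (0.26, limma adjusted p = 0.061), left 0 endothelial markers called, and brought Mgat5 (−0.31, limma adjusted p = 0.0323) and Dnmt3a (−0.37, limma adjusted p = 0.0123) past the threshold. The deviations of same-numbered tumours correlated at −0.09 to 0.12 and the labels state no pairing, so the block is not taken as the design. With each array centred on its median, 1 member was called and Lgals4 was at −0.21. With quantile normalization once more Lgals4 (−0.21) no longer passed and Lgals8 (−0.27) did, which leaves the count at 2. A trended and robust variance ended the call of Mgat2 (limma adjusted p = 0.0648), and Mgat5 passed with array weights (−0.29, limma adjusted p = 0.0296). Leaving out a tumour gave 3 to 7 calls among glycan synthesis genes, against 6. Differences of uncalled genes changed sign for Havcr2 without PTC replicate 2 or ATC replicate 3 (range −0.19 to 0.14 with each tumour left out), for Lag3 with quantile normalization (0.016) and for Lgals7 without ATC replicate 1 (range −0.021 to 0.074). Fewer tumours enter a fit with one left out; other causes were not tested. Low signal limits Lgals2, Lgals4 and Lgals12, and Lgals2 gave no value under either filter on dim genes.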

Other observations

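Lgals9 and Lgals3bp, both known to be induced by interferon, were highest in replicate 5 of each tumour type. So were Lgals8 and Col1a1, and Dnmt3a, Farp1 and Rnh1, the 3 genes most alike to Lgals3bp in profile. The limma array weight was lowest in replicate 5 of each type, at 0.375 in ATC and 0.608 in PTC. A lower weight marks an array further from its group, and its part in these values was not tested. A list of interferon-induced genes, chosen after the values of Lgals9 and Lgals3bp were seen, had 10 measured members and no call (median difference −0.04). Its mean was 7.63, 7.98, 8.76, 7.63 and 8.39 in ATC replicates 1 to 5, against 7.68, 8.25, 7.91, 8.05 and 8.17 in PTC replicates 1 to 5. The list mean was highest in ATC replicate 3 and PTC replicate 2. Its members differed in this: Ifit1, Ifit3, Rsad2, Usp18 and Rtp4 were, like the list mean, highest in ATC replicate 3 and PTC replicate 2. Stat2 was highest in replicate 5 of both types, at 8.33 in ATC and 8.59 in PTC, as was Irf9, at 8.38 in ATC and 8.73 in PTC. Oasl2 and Bst2 were highest in ATC replicate 3 and PTC replicate 5, and Irf7 in ATC replicate 5 and PTC replicate 3.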
